A study of Homo sapiens with 10 samples.

Results

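The 49 genes described here code for proteins that copy DNA or bring cells from G1 into S phase. They were taken from a list by gene name; no measured value is part of that rule, but the list was drawn up with earlier results of these data known. All 49 have a row among the 12373 genes of the deposited matrix. They were sorted by textbook role: 10 genes of origin licensing, 6 of helicase activation, 9 of the polymerases and primase, 7 of the sliding clamp and its loaders, 4 of nucleotide supply, 5 that process flaps, nicks, RNA and mismatches, 5 of chromatin and histone supply and 3 regulators of G1/S. The cells were Kuramochi, a human ovarian carcinoma line labelled epithelial and BRCA2-mutant. Olaparib, the agent used, blocks PARP enzymes, and cells that lack BRCA2-dependent repair are usually sensitive to it. Untreated cells (C) stood at 0 µM. The other 9 populations came from a single dose escalation and were kept in olaparib at 1, 2.5, 5, 10, 20, 40, 80, 160 or 320 µM until they were confluent (T1, T2.5, T5, T10, T20, T40, T80, T160 and T320). All 10 populations are labelled BRCA2-mutant, and the gene was not genotyped here. The culture density of the untreated cells was not given in the sources used here. Single-cell RNA libraries were made by inDrop, in which cells are enclosed in droplets with barcoded beads and molecules are counted by molecular identifiers (UMIs). There was 1 library per population and no replicate.

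In background terms, DNA replication begins in G1, when the origin recognition complex, CDC6 and CDT1 load the MCM2 to MCM7 helicase onto origins. At the start of S phase CDC45, the GINS complex and MCM10 turn that helicase on, primase and polymerase alpha lay down primers, and the clamp PCNA holds polymerases delta and epsilon on the template. Most of these genes are controlled by E2F factors, which the retinoblastoma family holds back until G1 cyclin-dependent kinases phosphorylate it. Their transcripts therefore peak around the G1/S boundary and are low in resting or early G1 cells. PARP inhibition is known to stall replication forks and to delay cells in the later part of the cycle.

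E2F-type letters stood in many of the members' promoters. In the RefSeq promoter table (GRCh38.p14, 250 bases before to 50 after each start), 58 promoters matched 43 members by symbol, and MCM4, MCM5, GINS4, POLD3, DSCC1 and E2F8 had none. The letters TTTCCCGC, TTTCGCGC, TTTGCCGC or TTTGGCGC, searched on both strands, were present in 24 of the 58 promoters (41.4%). They were held by 3.31% of all 35116 promoters there and by 4.85% of the 14377 promoters of genes in the matrix. There were 32 matches in 23 members, 20 of them beginning in the 100 bases before the start, and 3 pairs of matches overlapped. CCAAT was found in 35 of the 58 promoters (60.3%) against 34.6% of all promoters. TTTGAA, the letters of the element known as CHR in genes of G2 and mitosis, was found in 2 of the 58 (3.45%), against 15.2% of all promoters and 10.5% of those of genes in the matrix. A match is a description of letters and not a measured binding site.

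The following stretches show 4 members with such a match outside the annotated transcript. MCM6 has a doubled, overlapping pair, and the others are MCM3, the clamp and an E2F factor itself. The match shown for the licensing gene MCM3 lies at -174 to -167 from its RefSeq start. MCM3 has a second match, TTTCGCGC at -4 to 3 from that start, which lies outside the stretch shown. Each stretch is written 5′ to 3′ on the gene's own strand, which is the minus strand for all 4. It ends before the earlier of the starts in RefSeq and GENCODE 29. Capitals mark the E2F-type letters on either strand. They lie at chr2:135876444-135876603, chr6:52284882-52284992, chr20:5126627-5126786 and chr20:33686405-33686564 on GRCh38.p14.
MCM6: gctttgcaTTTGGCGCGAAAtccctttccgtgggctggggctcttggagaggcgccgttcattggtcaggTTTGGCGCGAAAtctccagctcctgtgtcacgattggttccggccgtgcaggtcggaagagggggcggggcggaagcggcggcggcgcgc
MCM3: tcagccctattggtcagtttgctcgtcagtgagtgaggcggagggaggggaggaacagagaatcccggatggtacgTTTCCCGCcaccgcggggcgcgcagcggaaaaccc
PCNA: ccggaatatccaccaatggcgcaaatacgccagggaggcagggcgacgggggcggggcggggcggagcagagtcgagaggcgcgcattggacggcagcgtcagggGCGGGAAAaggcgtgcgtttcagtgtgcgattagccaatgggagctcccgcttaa
E2F1: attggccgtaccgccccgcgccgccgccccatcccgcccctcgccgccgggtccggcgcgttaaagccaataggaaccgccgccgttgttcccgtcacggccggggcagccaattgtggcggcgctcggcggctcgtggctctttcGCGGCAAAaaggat

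The libraries held 18209 cells and 51277639 UMIs in all, from 726 cells and 1976069 UMIs in T5 to 1845 cells and 9343704 UMIs in C, and up to 2645 cells in T160. A second table from the authors lists 8240 of the cells (45.3%), and its name refers to G1. How those cells were picked was not given in the sources used here, and genes of this kind may have been used. The listed share was 24.6% in C and 40.2% to 54.8% in the treated populations. Listed cells were deeper in every population: their median was 5946 UMIs in C against 1669.5 in the unlisted cells, and 1332 to 3423.5 against 1029 to 2750 elsewhere. Mitochondrial genes took 11.5% of UMIs in C and 7.08% to 9.31% in the treated populations. The libraries share 970 cell barcodes, carried by 1984 cells (10.9%). Markers of Mullerian epithelium had lower summed levels at high doses: the sum (11 genes) was 2474 CPM in C and 619.6 CPM in T320, and 4 of the 9 tested (KRT8, PAX8, SOX17 and WT1) fell along the escalation by the edgeR trend test used for the members, with 0 rising. PAX8, KRT8 and KRT18 had UMIs in every library (PAX8 at 151 to 544 CPM), WT1 and KRT19 were listed at 0 in T160 and T320, EPCAM was listed at 0 in 7 of the 10 and CDH1 was not analysed here. Of markers of other cell types, 5 fibroblast genes summed to 69.7 CPM in C and to 2273 CPM in T5, 3 endothelial genes to at most 14.3 CPM, and CD68 alone of the leukocyte markers was present, listed at 0 up to T20 and at 43.9 CPM in T320. CD68 shares 81.1% of the 31-base words at its 3′ end with other annotated genes, so its value is uncertain. The part of these markers in the results was not tested.

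UMIs of a gene were summed over the cells of a population and divided by the population's total, giving CPM, which is not corrected for gene length. Summed over the 49 members, untreated cells had 3111 CPM and T1 cells 1876, the lowest of the 10 values. T2.5, T5, T10 and T20 had 2507, 2282, 2889 and 3079.6 CPM, and T40 had 3396 CPM, the highest of the 10 values. The last 3 populations had 2499, 2796 and 3163 CPM. T320 and C differed by 0.02 on the log2 scale (95% counting interval -0.01 to 0.06), while T1 was 1.66-fold below C (1.62 to 1.70). These intervals cover counting error only, and differences between libraries come on top of them. In sums of this kind, fewer cells with a transcript and less transcript per cell cannot be told apart.

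**Figure D1:**
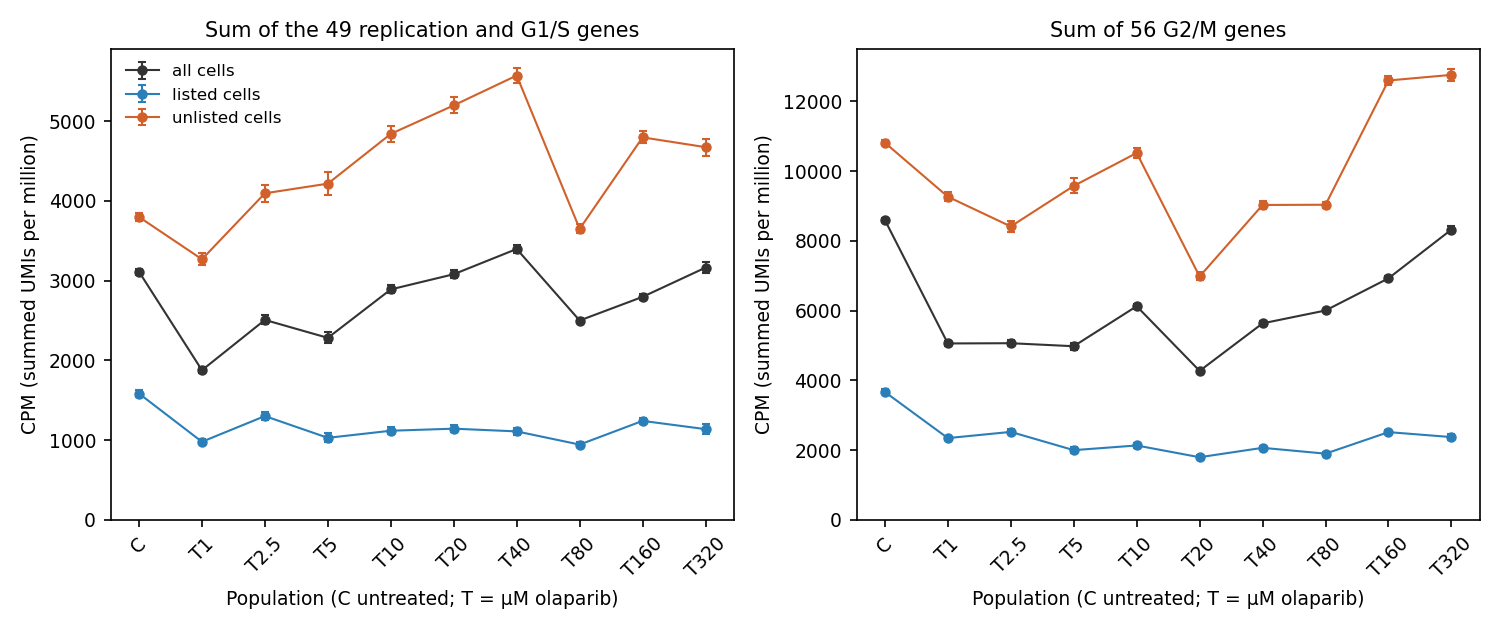
Summed CPM (y axis) of the 49 members and of the G2/M list by population (x axis, µM olaparib), for all, listed and unlisted cells, each point being 1 library. The member sum is lowest in T1 (1876 CPM) and highest in T40 (3396 CPM) over all cells, and the unlisted cells lie above the listed cells in all 10 populations.

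The G2/M list, 56 genes that act in G2 and mitosis, had its own course. Its sum was 8599 CPM untreated, 5059 at first exposure, 4272 by T20, 5636 by T40 and 8325 at the last dose. Both sums were therefore lower in T1 than in C and near the level of C in T320, but in T20 the members stood at 3079.6 CPM while the G2/M sum was at its lowest. The 29 other S-phase genes, a further list of replication-linked genes, had 1847 CPM untreated, 1416 at first exposure and 2013 at the last dose. Scaling by library composition moved the values from C to T320: the median of all measured genes shifted by -0.26 (log2) with TMM factors and -0.22 with DESeq2 size factors, and the member sum then stood 0.26 and 0.22 below C. The lower sum in T1 held under both scalings (-0.78 and -0.75 against -0.73).

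First exposure, from C to T1, gave the widest decrease in the member sum between neighbouring populations. A member counted as measured when it had at least 50 CPM in 1 of the 2 populations and at least 100 UMIs in all, and as lower or higher when log2(CPM + 10) differed by at least 1. Of 22 measured members 6 were lower (MCM6, RFC3, DSCC1, TYMS, RRM2 and TK1) and 0 higher, with no test since each side is 1 library. Over all 4186 measured genes 4.83% were lower and 7.57% higher. The median of the measured members was -0.53 against -0.07 for all measured genes. With all 49 members counted whatever their level, 43 were lower in T1 by any amount, and 22 of the 49 had their lowest value of the 10 populations in T1. The remaining members were lowest mostly in T5 (9 genes), T160 (7) and T80 (5). For these counts of direction and of lowest population, no share over all genes was computed.

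By role, the steepest fold in sum from C to T1 was in nucleotide supply, from 615 to 248 CPM. Helicase activation went from 151 to 62.7 CPM, the clamp and its loaders from 552 to 317 CPM, the regulators of G1/S from 132 to 76.6 CPM and origin licensing from 920.4 to 582 CPM. The polymerases and primase (242 to 178 CPM), the genes that process flaps, nicks, RNA and mismatches (336 to 273 CPM) and chromatin and histone supply (162 to 138 CPM) differed least. All 8 roles were thus lower in T1, from 0.404 times the level of C in nucleotide supply (interval 0.380 to 0.429) to 0.855 times in chromatin and histone supply (0.782 to 0.934).

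The 4 genes of nucleotide supply make the precursors of DNA. TYMS, thymidylate synthase (chr18:657604-673578), stood at 137 CPM in C, then 45.7, 81.9, 107, 119, 129, 157, 119.6, 88.5 and 113 CPM over the escalation. The T1 library was 3.0-fold below C (2.62 to 3.46), and T20 and T40 were close to or above C. TK1, thymidine kinase of the salvage route (chr17:78174075-78187233), had 231 CPM without drug, then 98.2, 202, 231, 205, 250.4, 228, 156, 204 and 183 CPM in order of dose. Its T1 value was 2.35-fold below C (2.14 to 2.59), and T5 was back at the level of C.

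Ribonucleotide reductase, which turns ribonucleotides into deoxyribonucleotides, has a large subunit, RRM1, and a small subunit, RRM2. Their transcripts had different courses. RRM2 (chr2:10120698-10131419) had 149 CPM in C and 42.0, 97.6, 105, 67.1, 70.8, 67.5, 37.7, 30.3 and 39.6 CPM from T1 to T320. Every treated library was below C, with 3.77-fold between C and T320 (3.11 to 4.61). RRM1 (chr11:4094707-4138876) had 97.3 CPM untreated and 62.4, 99.8, 87.5, 114, 71.9, 141, 114, 84.9 and 201 CPM over the escalation. Its highest value was in T320, 2.07 times that of C by library total (1.86 to 2.3), whereas RRM2 was among its lowest there. RRM1 lay below C in T1, T5, T20 and T160, and its slope along the escalation did not pass (0.08, adjusted p = 0.230 by edgeR).

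Among the licensing genes, the MCM subunits form the ring that unwinds DNA. MCM7 (chr7:100092728-100101940) stood at 249 CPM in C, then 191, 224, 202, 339, 258, 426, 304, 313 and 284 CPM in order of dose. MCM4 (chr8:47960185-47978160) had 232 CPM without drug, then 153, 191, 135, 252, 304, 247, 159, 129.8 and 149.7 CPM from T1 to T320. MCM7 was above C in all 6 populations from T10 on, while MCM4 was above C only in T10, T20 and T40 and 1.55-fold below it in T320 (1.40 to 1.73). MCM6 (chr2:135839626-135876426) had 105 CPM in C and 38.4, 65.9, 37.4, 52.7, 90.5, 54.5, 37.7, 53.3 and 59.4 CPM over the escalation, so that no treated library reached C. The subunits MCM2 (71.2 to 125 CPM), MCM3 (20.0 to 56) and MCM5 (37.3 to 61.0) had no shared order of populations. Of the loaders, ORC1 ran from 6.07 to 19.1 CPM, ORC6 from 21.9 to 59.8, CDC6 from 14.2 to 50.5 and CDT1 from 13.3 to 32.8, and CDC6, CDT1 and ORC6 all had their lowest value in T1.

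Helicase activation was low in count throughout. MCM10, CDC45, GINS2, GINS3 and GINS4 were each lowest in T1, and GINS1 in T160. CDC45, which joins the MCM ring to form the active helicase, had 17.2 CPM untreated, 6.93 at first exposure, 29.1 by T40 and 26.9 at T320. MCM10 ranged from 12.4 CPM in T1 to 57.0 in T320, GINS1 from 11.7 to 36.8, GINS2 from 12.2 to 40.6, GINS3 from 4.87 to 14.3 and GINS4 from 11.6 to 28.3.

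PCNA, the clamp that encircles DNA (chr20:5114953-5126626), had 206 CPM untreated and 111, 148, 151, 192, 218, 312, 235, 246 and 274 CPM in order of dose. All 5 populations from T20 on were above C and the 4 lower doses were below it. RFC3, a small subunit of the complex that loads the clamp (chr13:33818049-33966558), went the other way. It had 117 CPM in C, then 50.4, 50.5, 53.1, 40.1, 32.2, 49.7, 31.9, 44.6 and 38.2 CPM from T1 to T320. RFC3 counted as lower than C in all 9 treated populations, with 2.33-fold in T1 (2.03 to 2.67) and 3.07-fold in T320 (2.51 to 3.77). Of the other subunits of the loader, RFC1, the large subunit, ranged from 65.6 to 126 CPM, RFC2 from 11.6 to 43.2 and RFC4 from 13.7 to 43.2, each highest in T320. RFC5, like RFC3, was highest in C (30.7 CPM) and lower in every treated library, from 13.1 CPM in T1 to 25.5 in T40, but its slope along the escalation was -0.01. DSCC1, a subunit of the alternative loader that serves sister chromatid cohesion, had 68.0 CPM untreated, 23.8 at first exposure and 60.5 at T320.

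The polymerase and primase genes had few UMIs, and 2 of them, POLD1 and PRIM1, rose along the escalation. POLD1, the catalytic subunit of polymerase delta (chr19:50384204-50418016), had 9.31 CPM without drug, then 8.80, 12.8, 5.06, 9.96, 9.64, 15.6, 19.8, 26.8 and 60.9 CPM over the escalation. PRIM1, the catalytic subunit of primase (chr12:56731596-56752373), had 8.56 CPM in C and 4.31, 7.04, 5.06, 10.7, 10.3, 14.9, 12.5, 17.8 and 31.5 CPM in order of dose. Both were highest in T320, POLD1 at 6.54 times C (5.02 to 8.56) and PRIM1 at 3.68 times (2.69 to 5.04). These 2 genes share many letters with other annotated transcripts: 64.0% of the 31-base words in the last 500 bases of POLD1 and 71.7% of those of PRIM1 occur in another gene of GENCODE 29, so reads of other genes may be counted there and their values are uncertain. Another 7 members share over 10% (ORC1, ORC6, CDT1, PRIM2, RFC2, RNASEH2A and CHAF1B). POLD2, an accessory subunit of the same polymerase, ranged from 28.2 CPM in T10 to 82.8 in C, POLD3 from 30.0 to 63.3, POLE from 26.2 to 43.6, POLA1 from 9.20 to 24.0, POLA2 from 9.11 to 24.0 and PRIM2 from 6.16 to 22.2.

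The remaining roles hold 13 members. MSH6, which recognises mismatches (chr2:47695530-47810101), had 66.1 CPM untreated and 92.3, 72.0, 72.4, 102, 118, 77.0, 70.7, 136 and 139 CPM from T1 to T320. It was lowest in C, the only member of which that holds. CHAF1A, a subunit of the histone chaperone CAF-1 (chr19:4402662-4445018), had 31.1 CPM in C, then 28.7, 34.9, 20.7, 26.8, 40.4, 35.8, 27.2, 36.6 and 61.6 CPM over the escalation, with T320 standing above the others. FEN1, the flap nuclease, ranged from 57.3 to 126 CPM, LIG1, the nick ligase, from 23.7 to 61.7, RNASEH2A from 34.4 to 92.4 and UNG from 39.5 to 100.02. HELLS, a chromatin remodeller, ranged from 56.6 to 119 CPM and SLBP, which binds the stem-loop of histone transcripts, from 38.0 to 70.1. E2F1 was at 72.7 CPM untreated, 35 at first exposure, 99.2 by T40 and 64.8 at T320, DTL ranged from 26.8 to 87.2 and E2F8 from 3.67 to 11.1. CHAF1B was listed at 0 in T1, T5 and T10, POLE2 in T2.5 and UHRF1 in T160. In each library, genes not listed at 0 were found in at least 0.957% of its cells, so a listing at 0 is not a measured absence.

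**Figure D2:**
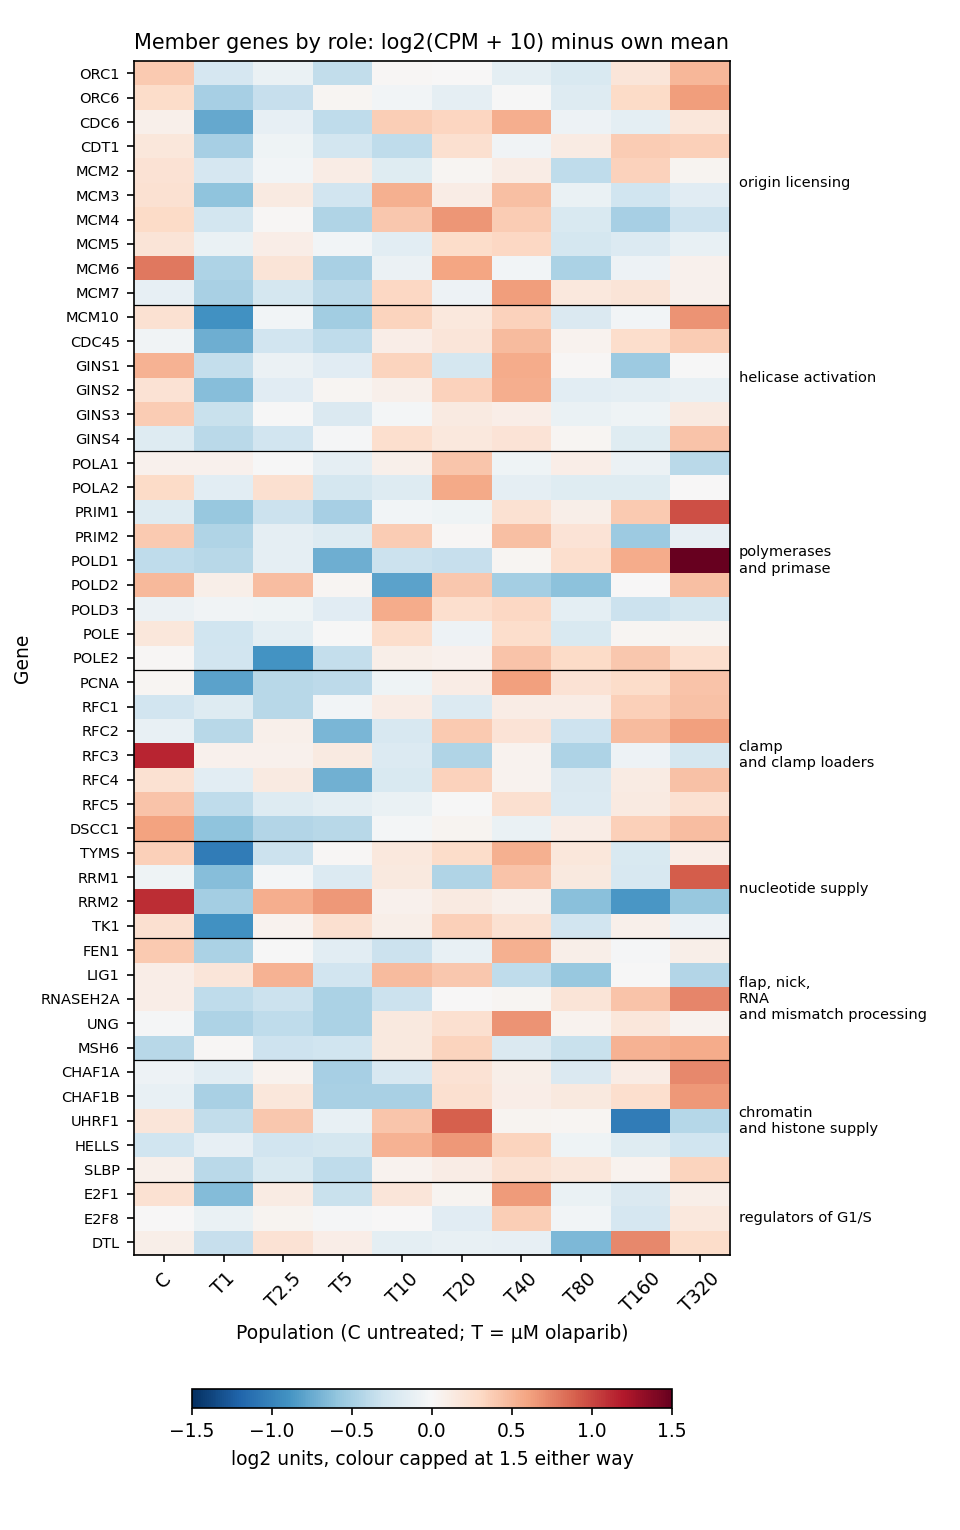
Log2(CPM + 10) of each member (y axis, grouped by role) in each population (x axis), minus the gene's own mean over the 10 populations, as colour. The T1 column is low in most rows (22 of 49 members have their lowest value there), RFC3 and RRM2 are high in C, and POLD1 and PRIM1 are high in T320.

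Between T1 and T320 the comparison with C gave 1 to 4 calls per population, among 22 to 25 measured members. No member was higher than C from T2.5 to T160, where 4.55% (T2.5), 7.87% (T5), 13.0% (T10), 6.67% (T20), 8.88% (T40), 9.25% (T80) and 13.4% (T160) of all measured genes were. Lower members numbered 2 of 23 at T2.5 (RFC3 and DSCC1, background 2.37%) and 3 of 22 at T5 (MCM6, RFC3 and DSCC1, 4.72%). At T10 they were 3 of 25 (POLD2, RFC3 and RRM2, 7.17%) and at T20 1 of 23 (RFC3, 7.29%). At T40 they were 2 of 25 (RFC3 and RRM2, 8.76%). T80 had 4 of 22 (MCM6, POLD2, RFC3 and RRM2, 13.0%) and T160 2 of 22 (RFC3 and RRM2, 11.0%). RFC3 alone was in every one of these counts.

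The steps after first exposure were compared in the same way, with the populations chosen after their sums were seen. From T1 to T40, 10 of 23 measured members were higher (CDC6, MCM3, MCM7, PCNA, TYMS, RRM1, TK1, FEN1, UNG and E2F1) and 0 lower, against 7.26% higher and 8.80% lower among all 4272 measured genes. CDC6 stood at 3.55 times its T1 level (2.74 to 4.65) and TYMS at 3.45 times (2.98 to 3.99). The member sum was 1.81 times as high in T40 (1.77 to 1.86). From T40 to T80, 0 of 21 measured members counted as higher or lower (background 0.315% higher, 1.92% lower). Still, 42 of the 49 were lower by some amount, with a median of -0.46 for the measured members against -0.08 for all measured genes. The sum stood at 0.736 of its level in T40 (0.721 to 0.751). On the log2 scale this was -0.44 by library total, -0.34 with TMM factors and -0.37 with DESeq2 size factors. From T80 to T320, POLD1 and POLD2 were higher of 23 measured (background 4.30%) and 0 were lower (4.33%), and the sum was 0.34 higher on the log2 scale by library total but only 0.04 with TMM factors and 0.09 with DESeq2 size factors.

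At the end of the escalation, from C to T320, 26 members were measured. POLD1 alone was higher (background 15.4%), and RFC3 and RRM2 were lower (background 11.6%), so the shares of members past the 2-fold line were below those of all 4617 measured genes. The median of the measured members was 0.03, against 0.12 for all measured genes. RRM1 (0.98) and MSH6 (0.97) lay just under the line and CHAF1A followed at 0.80, and on the lower side MCM6 stood at -0.73 and MCM4 at -0.60.

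A slope along the 10 ordered populations was the only contrast with a test. It was fitted with edgeR's quasi-likelihood test per step of the escalation (0 for C to 9 for T320) and adjusted by Benjamini-Hochberg over 11387 genes, with 0.05 as the threshold; the populations are successive stages of 1 culture and not independent. Of the 49 members 4 passed (8 had an unadjusted p below 0.05), while 17.0% of all genes tested passed, 8.03% upward and 8.99% downward. POLD1 rose by 0.24 log2 units per step (SE 0.05, adjusted p = 0.0124 by edgeR) and PRIM1 by 0.21 (SE 0.05, adjusted p = 0.0160 by edgeR). RRM2 fell by 0.22 per step (SE 0.05, adjusted p = 0.0187 by edgeR) and RFC3 by 0.15 (SE 0.04, adjusted p = 0.0237 by edgeR). The median slope of the members was 0.01 and that of all genes lay within 0.01 of 0, with 26 members above 0 and 23 below.

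The 4 calls changed when populations were left out, and each such fit also has fewer libraries. Over all cells, none of the 49 members passed without the T320 library or with only C to T80. Without T320 the slope of POLD1 was 0.17 in place of 0.24 (adjusted p = 0.0869 by edgeR) and that of PRIM1 0.17 in place of 0.21 (adjusted p = 0.101 by edgeR). The slopes of RRM2 (-0.22, adjusted p = 0.0571 by edgeR) and RFC3 (-0.17, adjusted p = 0.0557 by edgeR) were then no smaller than with all 10 populations. Without C the slope of RFC3 shrank to -0.07 (adjusted p = 0.154 by edgeR) and that of RRM2 to -0.18 (adjusted p = 0.0912 by edgeR). The 7 members that passed without C all had slopes above 0 (CDC45, DSCC1, ORC6, PCNA, POLD1, PRIM1 and RNASEH2A). Without T80 the slope of RFC3 stayed at -0.15, with an adjusted p of 0.0546 by edgeR. In unlisted cells alone POLD1 (slope 0.23, adjusted p = 0.0118 by edgeR) and PRIM1 (0.19, adjusted p = 0.0202 by edgeR) passed without T320. In listed cells POLD1 did not pass with all 10 populations (0.13, adjusted p = 0.289 by edgeR).

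**Figure D3:**
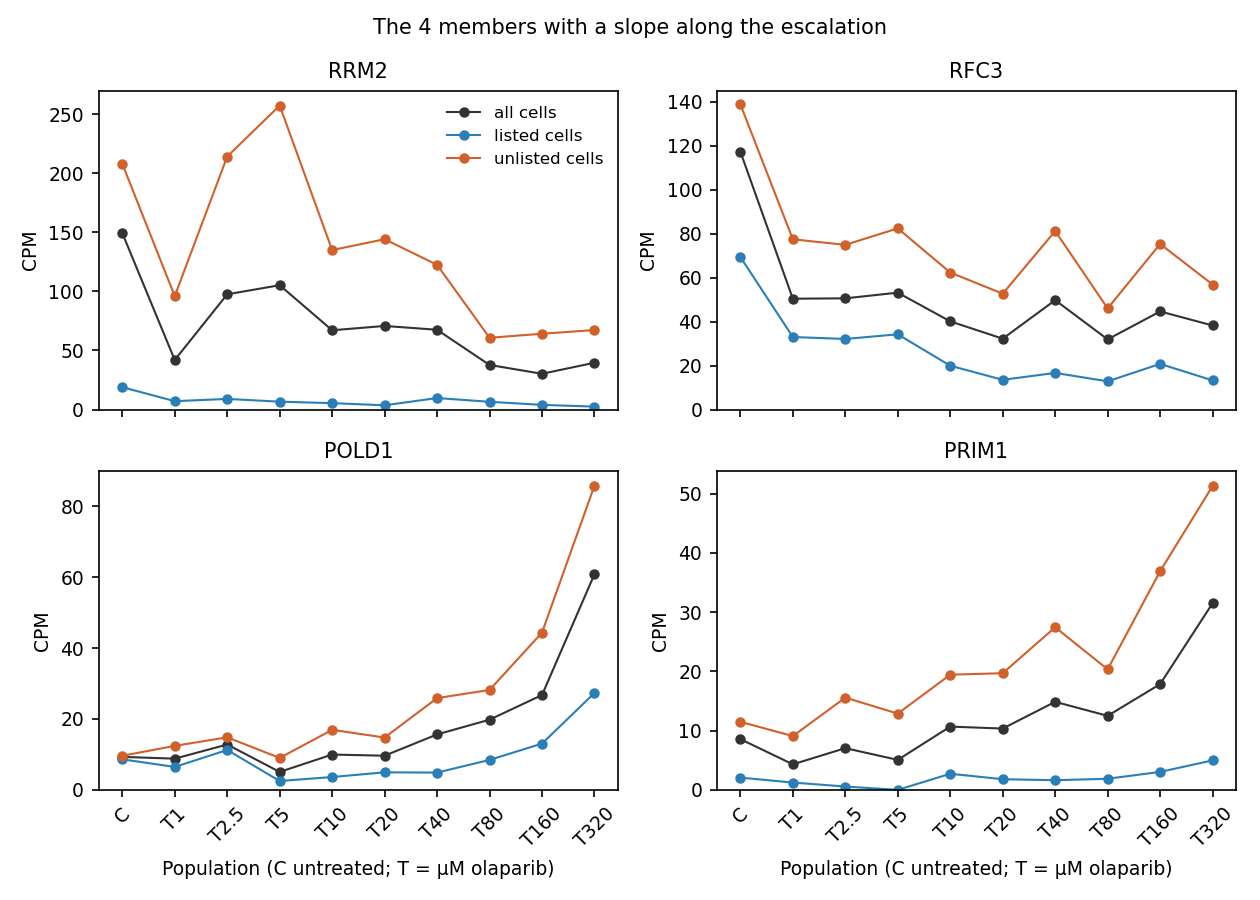
CPM (y axis) of the 4 members whose slope along the escalation passed the test, by population (x axis), for all, listed and unlisted cells, 1 library per point. Over all cells RFC3 drops between C and T1 and stays low, RRM2 is lowest from T80 on, and POLD1 and PRIM1 stand highest in T320 (60.9 and 31.5 CPM).

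Unlisted cells held several times more member transcripts than listed cells in every population. The ratio of the sums was 2.40 in untreated cells, and with rising dose 3.34, 3.15, 4.10, 4.33, 4.55, 5.02 (T40), 3.87, 3.86 and 4.11, so C had the smallest ratio and T40 the largest. The ratio for the G2/M list ran from 2.95 to 5.37. By role the median ratio was highest for helicase activation (6.95), nucleotide supply (6.49) and the regulators of G1/S (6.38), then origin licensing (4.46), chromatin and histone supply (4.03), the clamp and its loaders (3.01), the processing genes (2.76) and the polymerases and primase (2.53). Because cells may have been listed with the help of such genes, these values are a description and carry no test.

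Gene by gene, 29 members had enough UMIs to be measured, and for 25 of them the median difference over the 10 populations was at least 1 on the log2(CPM + 10) scale, where 3.82% of all 3981 measured genes reached that; 0 of the 29 were lower by as much (0.0502%). The 4 that did not were POLD2, RFC1, MSH6 and SLBP. Of the 49 members 44 were higher in the unlisted cells of all 10 populations, and 27 of the 29 measured ones, against 15.1% of all measured genes. In 22 of the 29 the lowest unlisted population lay above the highest listed one (3.54% of all measured genes).

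TYMS had the largest median difference, 2.85. Its listed cells had 50.4 CPM in C and 4.62 to 30.1 CPM in the treated populations, and its unlisted cells 176 CPM in C and 109 to 279 CPM in the others. RRM2 followed at 2.83, with 2.49 to 19.0 CPM in listed cells and 60.8 to 257 CPM in unlisted cells. For TK1 (2.19) the listed range was 39.4 to 127 CPM and the unlisted range 177 to 446, and for MCM4 (2.17) the ranges were 35.6 to 101 and 235 to 526. In none of the 4 did the listed and unlisted ranges overlap. POLD2 (0.36) and RFC1 (0.43) differed least and were higher in the unlisted cells of 9 of the 10 populations. Members with the E2F-type letters (23) had a median difference of 1.37 and the 20 matched members without them 1.19.

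**Figure D4:**
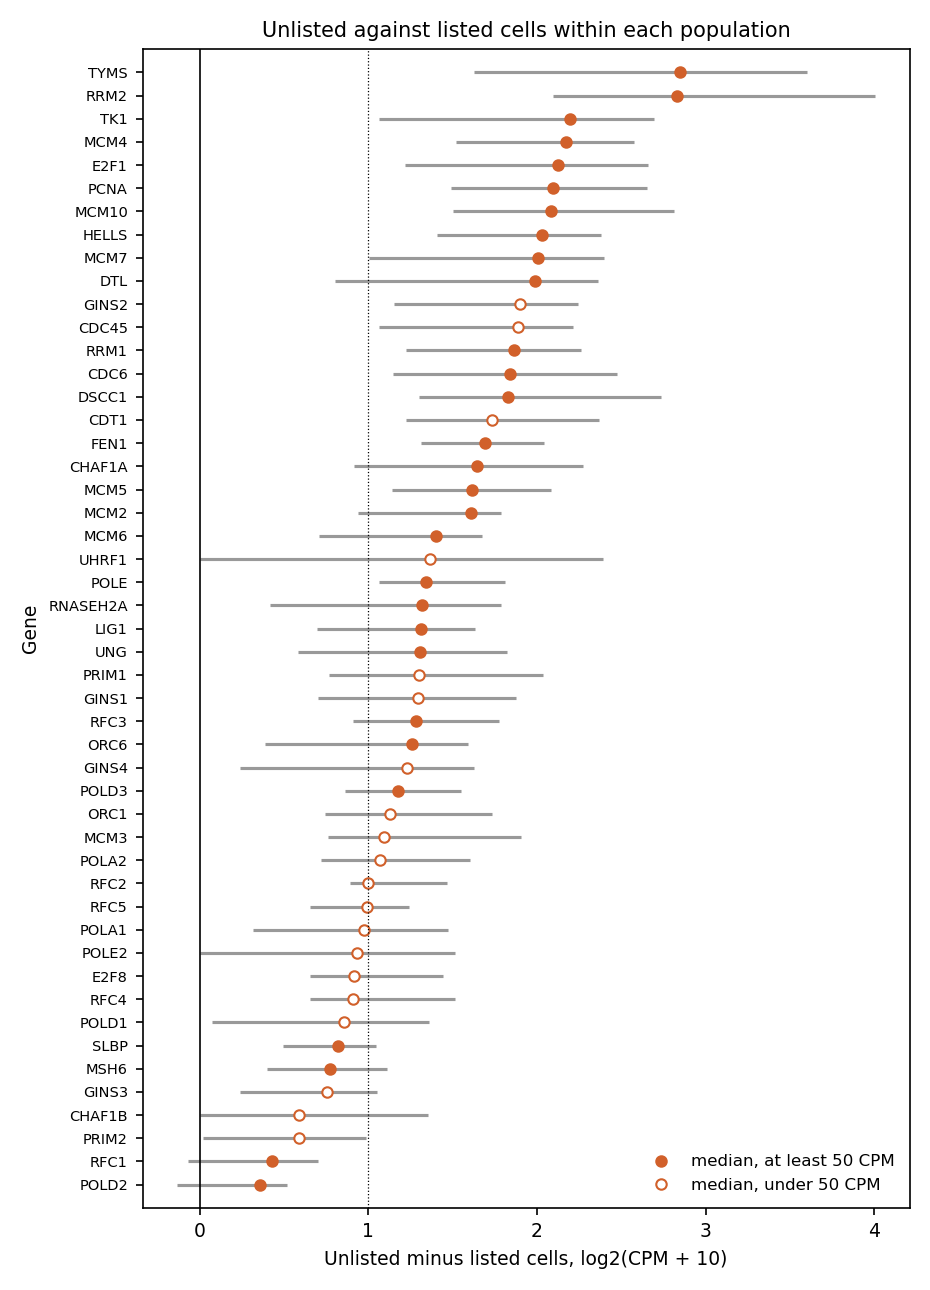
Difference in log2(CPM + 10) between unlisted and listed cells (x axis) for each member (y axis). Horizontal lines run from the lowest to the highest of the 10 populations, and the marker is their median. Open markers are members without enough counts to be measured. TYMS and RRM2 lie farthest right (2.85 and 2.83), POLD2 and RFC1 nearest to 0 (0.36 and 0.43), and the dotted line stands at 1.

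The C to T1 step was examined within each class of cells, since C had the lowest share of listed cells. In listed cells the sum went from 1584 to 979 CPM (0.618 of C, interval 0.591 to 0.647), and in unlisted cells from 3797 to 3267 CPM (0.860, 0.838 to 0.884). Both classes were lower in T1, by -0.69 and -0.22 on the log2 scale, against -0.73 over all cells. MCM6, TYMS and TK1 counted as lower among 12 measured members in listed cells (background 3.93%), and RRM2 alone among 29 in unlisted cells (3.74%). No member was higher in either class (7.09% and 7.32% of all measured genes). In unlisted cells the sum of chromatin and histone supply was 1.32 times that of C (1.20 to 1.46), the processing genes 1.06 times (0.977 to 1.14) and nucleotide supply 0.639 times (0.597 to 0.683).

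In every treated population but T1 and T80, the listed sum lay below that of C and the unlisted sum above it. The listed and unlisted sums were 1584 and 3797 CPM in C, 1301 and 4094 in T2.5, 1109 and 5571 in T40 and 943.8 and 3648 in T80. In T320 listed cells stood at 1137 CPM, 0.718 of C (0.676 to 0.763), and unlisted cells at 4673 CPM, 1.23 times C (1.20 to 1.26). MCM4, RFC3 and TK1 counted as lower among the 14 measured members in listed cells and 0 as higher (background 13.0% lower, 14.4% higher). In unlisted cells PRIM1, POLD1, RRM1, MSH6 and CHAF1A were higher among 34 measured, and RFC3 and RRM2 lower (background 17.3% and 11.7%). Slopes fitted by edgeR within listed cells passed for 6 of 41 members (16.9% of all genes, 8.90% downward). PCNA passed upward and E2F1, LIG1, MCM5, RFC3 and TK1 downward. Of the 41 slopes 30 lay below 0, and the median of the 41 was -0.067 against -0.00057 for all genes. Within unlisted cells 5 of 49 passed, POLD1, PRIM1 and RNASEH2A upward and RFC3 and RRM2 downward (16.3% of all genes, 7.60% upward and 8.67% downward). RFC3 passed in both classes. Leaving out any 1 population left its call in listed cells in place (adjusted p 0.00514 to 0.0242 by edgeR), whereas in unlisted cells the call was lost in 5 of the 10 repeats (adjusted p 0.0332 to 0.216 by edgeR). Its slope in unlisted cells was -0.12, and -0.07 without C. Among the other calls in listed cells, PCNA was lost in 8 of the 10 repeats, E2F1 in 5, and LIG1, MCM5 and TK1 in 4 each. Among the other calls in unlisted cells, RNASEH2A was lost in 5 and RRM2 in 3, while POLD1 and PRIM1 passed in all 10.

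The difference between the 2 slopes was tested directly, in a fit with the population as a block. Cells may have been listed with the help of the genes tested, so these p-values cannot tell the escalation from the listing. Of the 49 members 8 passed, all with a more positive slope in unlisted cells (E2F1, GINS4, LIG1, MCM4, MCM7, ORC6, RFC3 and TK1). Among 11387 genes 0.852% passed in that direction, 1.33% in the other and 2.19% in either. The median difference was 0.066 for the members and -0.0046 for all genes, and 42 of the 49 lay above 0. In C, T1, T40 and T320, TK1 had 127, 47.1, 52.4 and 43.1 CPM in listed cells and 277, 177, 394 and 287 CPM in unlisted cells. The difference of its slopes was 0.18 per step (SE 0.02, adjusted p = 5.66e-06 by edgeR). MCM7 went from 143 to 87.0 CPM in listed cells between C and T320 and from 297 to 432 CPM in unlisted cells (difference 0.15, SE 0.02, adjusted p = 1.59e-05 by edgeR). E2F1 went from 33.1 to 9.94 CPM in listed cells and from 90.5 to 106 CPM in unlisted cells (difference 0.19, SE 0.03, adjusted p = 0.000733 by edgeR). In the G2/M list 14 of 56 genes passed, all in that direction too. Without C the count was 5, with E2F1, GINS4, MCM7 and TK1 as before and TYMS in the opposite direction. The listed share and the depth of listed cells were set apart in C (24.6% and 5946 UMIs), and their part in this difference was not tested.

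Single cells were compared at equal depth by drawing 1000 UMIs from each cell and leaving out shallower cells, 10 in T80 to 614 in T2.5. The share of cells with at least 3 member UMIs was 53.1% in C (exact binomial 95% interval 50.5 to 55.7) and 23.8% in T1 (21.9 to 25.8). The populations from T2.5 to T160 had 37.4%, 29%, 39.5%, 42.4%, 45.6%, 37.7% and 40.5%, and T320 had 47.9% (44.9 to 51.0). Over all cells every treated population was below C, T1 most of all, and T320 by 5.17 percentage points. With at least 5 member UMIs as the threshold T320 was instead 3.99 percentage points above C, and with 800 UMIs drawn per cell it differed from C by -0.10. Without thinning the shares were 49% in T1 and 81.3% in C. In listed cells the thinned share was 23.1% in C and 7.84% to 16.7% elsewhere. In unlisted cells it was 64.2% in C, and T1 (47.6%), T2.5 (62.0%) and T80 (57.8%) were lower. Unlisted cells of T5 (64.5%), T10 (73.0%), T20 (78.3%), T40 (74.2%), T160 (75.3%) and T320 (76.5%) were higher than those of C. The shallower cells left out were mostly unlisted, with 352 unlisted and 77 listed in T1 and 323 and 36 in T20. The part of this in the shares over all cells was not tested. No cell type without these genes is present to give a background of free RNA, and the listed cells are the lowest group available.

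**Figure D5:**
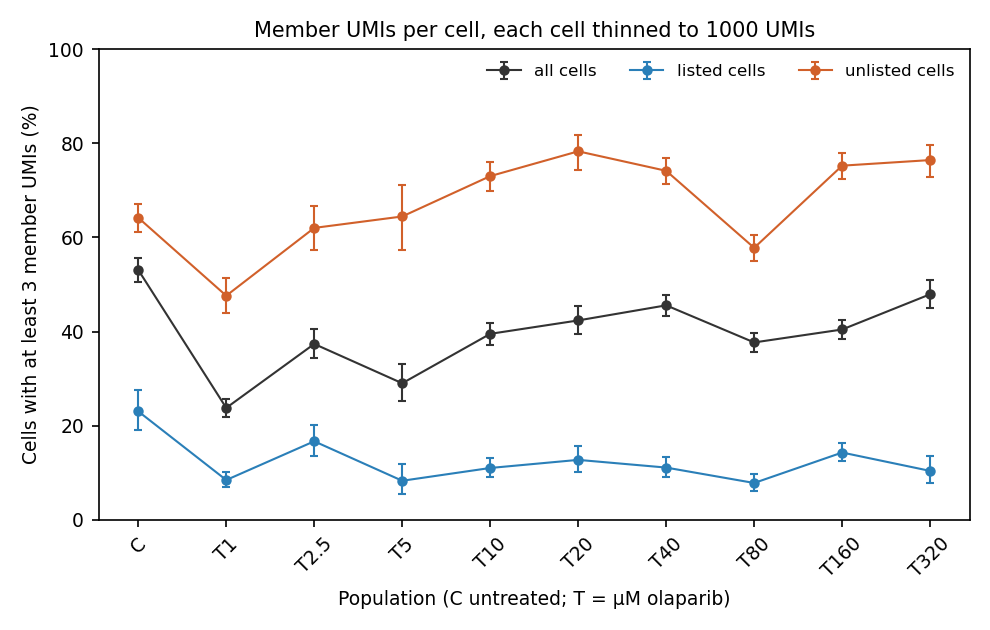
Percent of cells with at least 3 member UMIs after each cell was thinned to 1000 UMIs (y axis), by population (x axis), for all, listed and unlisted cells, with exact binomial 95% intervals. Over all cells C is highest (53.1%) and T1 lowest (23.8%), and listed cells stay at or below 23.1% throughout.

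The spread between cells differed by class as well. The variance of member UMIs per thinned cell divided by their mean, which is 1 for pure counting noise, was 1.05 to 1.25 in listed cells and 1.57 to 2.54 in unlisted cells. Over all cells it was 1.77 in C and 2.47 to 3.35 in the treated populations. The share of cells with no member UMI was 10.1% in C, 28.5% in T1 and 16.3% in T320. In C the share of thinned cells with at least 3 G2/M UMIs was 88.0%, against 54.2% to 71.6% in the treated populations. Across all cells of a population, member and G2/M UMIs had Spearman's rho of 0.15 in C and 0.37 to 0.57 in the treated populations, and within unlisted cells -0.21 to 0.18. Cells share a library, and these coefficients are given as a description.

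The authors' table also gives each listed cell a state, C or S1 to S5, by a method that the sources used here do not state. In T10, where 3 states were present, the member sum was 1129 CPM in S2, 1278 in S3 and 968 in S4. In T40 it was 1361 CPM in S3 (221 cells) and 1036 in S4 (697 cells), and in T80 1153 CPM in S3 (72 cells) and 926 in S4 (838 cells). S3 was higher than S4 in each of T10, T20, T40 and T80, with counting intervals that did not overlap, the nearest being 1024 to 1295 against 892 to 962 in T80.

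Other genes of the G1/S control pathway were read from fixed lists. Of 26 tested cyclins, kinases, inhibitors and pocket proteins 9 passed the edgeR trend test, 3 upward and 6 downward. Over all genes tested 17.0% passed, 8.03% upward and 8.99% downward. The CDK inhibitors CDKN1A and CDKN1C were among those that rose, CDKN1A from 34.7 CPM untreated over 57.9 at first exposure to 239.6 at T320 (slope 0.28, adjusted p = 0.00662 by edgeR) and CDKN1C from 9.95 CPM in C to 57.4 in T160 (slope 0.26, adjusted p = 0.00556 by edgeR). CDKN2A, another CDK inhibitor, named after its values were seen, was among those that fell by the same test, with 1201 CPM in C, 89.2 in T80, 555 in T160 and 242.7 in T320. TFDP1, a DNA-binding partner of several E2F factors, fell from 109 CPM untreated over 50.8 at first exposure to 29.4 at T320 (adjusted p = 0.00487 by edgeR). TFDP2, also named after its values were seen, had 71.3 CPM in C, 125 in T1 and 99.1 in T320 and was not among the genes that passed. The repressive factor E2F5 fell from 62.4 to 7.78 CPM (adjusted p = 0.00567 by edgeR). The sum of this list was 2801 CPM untreated, 1383 at T80 and 1790.1 at T320. Of the 29 other S-phase genes BRIP1 and UBR7 rose and USP1 fell, and of the 56 G2/M genes GAS2L3 and HMGB2 rose and ANP32E and LBR fell, all by the same edgeR test and against the same 17.0% of all genes. Of 10 tested replication-dependent histone genes, which supply histones during S phase, HIST1H4H fell and 0 rose. The summed level of that list went the other way, with 1251 CPM in C, 2735 in T160 and 2059.7 in T320. Most of this sum was HIST1H4C, named after its values were seen, at 1142 CPM in C, 2613 in T160 and 1971 in T320, whose slope did not pass.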

How the data were processed

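Single-cell libraries of 10 populations, 1 each, were compared. The matrix deposited by the authors holds UMI counts per gene and cell, with no normalization. The per-cell table that the authors deposited gives a fraction for mitochondrial UMIs beside counts of UMIs and genes. The submitters' processing notes name hg38, GRCh38 and Seurat 2.3.2. Aligner, counting tool and filters on cells were not given in the sources used here. Groups came from the labels' treatments. Barcodes matched the 918 listed cells of T40, which are named differently there, with identical UMI totals. Every cell was used; doublets were not called and stay in the sums. Libraries held 1976069 to 9343704 UMIs, which set the counting intervals (exact Poisson, or exact Clopper-Pearson for shares).

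Counts were summed per population and scaled to CPM, and differences taken on log2(CPM + 10). Slopes were tested with edgeR 4.0.16 (quasi-likelihood, TMM, at least 100 UMIs, 8 residual degrees of freedom). Nothing in the labels says that the libraries came from separate cultures, so p-values measure only the spread between these libraries. The alternatives were DESeq2 1.42.0, limma 3.58.1 voom, other pseudocounts, filters and depths, 1 class of cells alone, and each population left out. Adding a test of the difference of slopes, the comparisons T1 to T40, T40 to T80 and T80 to T320, and the alternative without genes that share over 10% of 31-base words was decided after the data were seen. On simulated counts the trend test recovered 1 of 100 genes with a total log2 change of 1 and 57 of 100 with a change of 2, with 2 false calls among 11187 genes, and the difference of slopes recovered 89 and 100 of 100, with 13 false calls. A first simulation of that difference used the dispersion across libraries and recovered none, so the dispersion within libraries was used. This setting was chosen after the first outcome was seen, and the 89 and 100 recovered depend on it.

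Gene positions came from GENCODE 29 on GRCh38 (49 of 49 members by symbol). Members and lists were chosen with earlier results of these data known. Described in full were the 5 members with the highest mean CPM, those with a slope past the threshold, the 4 members highest and the 4 lowest in T320 relative to C, and the 4 largest differences between unlisted and listed cells. The others appear by role with ranges, and of the other lists at most 4 genes each with a slope past the threshold.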

Additional observations from a re-analysis of the deposited data

Results flagged for a closer look

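For 8 members the slope along the escalation differed between unlisted and listed cells in a direct test (edgeR quasi-likelihood, adjusted over 11387 genes), in each case being more positive in unlisted cells. In log2 units per step the difference was 0.15 for ORC6, 0.086 for MCM4, 0.15 for MCM7, 0.20 for GINS4, 0.12 for RFC3, 0.18 for TK1, 0.11 for LIG1 and 0.19 for E2F1. Leaving out each population in turn kept MCM7, TK1 and E2F1 past the threshold in all 10 repeats. The call was lost for GINS4 without T1 (difference 0.17), for ORC6 (0.14) and RFC3 (0.10) without C, and for LIG1 in 5 and MCM4 in 6 of the 10. Without C the difference was 0.083 for LIG1 and 0.056 for MCM4, and in their other losses it was 0.10 to 0.12 for LIG1 and 0.080 to 0.095 for MCM4, near the values over all populations. Listing may itself rest on genes of this kind, and the cells were listed more sparingly in C (24.6%) than elsewhere. The part of either in the difference was not tested.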

How the results depend on the processing

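The trend kept POLD1, PRIM1, RFC3 and RRM2 with limma voom, with DESeq2, with library-size scaling and with no filter on low counts. The 4 calls became 2 (RFC3 and RRM2) with at least 1000 UMIs and 2 (the same) without genes that share sequence. POLD1 and PRIM1 were left out of both fits, with 871 and 618 UMIs and over 10% of 31-base words shared. From C to T80 the calls became 0. Leaving out each population gave 0 to 7 calls over all cells, 1 to 6 in listed cells, 2 to 6 in unlisted cells, and 5 to 10 for the difference of slopes.

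From C to T1, the 6 members that were lower became 1 with a pseudocount of 50 CPM, 1 at a minimum of 200 CPM, 3 in listed cells and 1 in unlisted cells, and the log2 difference of the sum (-0.73) became -0.78 with TMM, -0.69 in listed cells and -0.22 in unlisted cells. From C to T320, the 1 member that was higher (POLD1) became 3 with a pseudocount of 1 CPM and 0 with 50 CPM. The count became 2 at a minimum of 20 CPM, 0 at 200 CPM, 0 in listed cells and 5 in unlisted cells. Without sharing genes it was 0, where POLD1 itself was left out. The 2 that were lower became 1 with a pseudocount of 50 CPM and 0 at 200 CPM. The sum (0.02) became -0.26 with TMM, -0.22 with DESeq2 size factors, -0.48 in listed cells, 0.30 in unlisted cells and -0.10 without sharing genes.

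The 25 members higher in unlisted cells became 12 with a pseudocount of 50 CPM. The share of thinned cells in T1 minus C (-29.3 percentage points) became -20.7 at 800 UMIs, -18.4 for at least 1 UMI, -14.8 for at least 5 and -24.2 without the 3 members with the most UMIs. In T320 minus C (-5.17) it became -0.10 at 800 UMIs and -13.0 without thinning, and it turned to 3.99 for at least 5 UMIs. The promoter share (41.4%) became 69.0% with the 7-base core. The causes were not tested.

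No paired analysis was possible because each population has 1 library, apart from the listed and unlisted cells of a population, which the test of their slopes paired by a block. Depth limits the members under 20 CPM and the T5 library, which had the fewest UMIs (1976069).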
